A study of Arabidopsis thaliana with 54 samples.

Results

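Small RNA from Arabidopsis thaliana Col-0 seedlings labelled as grown in short day (8 h light, 16 h dark) was compared between the end of the night and the morning. Short day is the name on the label throughout: on features that separate the photoperiods, 4 of the 6 libraries lay on the long-day side, as described before the results. The comparison holds every library labelled short day at Zeitgeber time 24 (ZT24, hours counted from lights on, so 24 is the last hour of darkness) and every one labelled short day at ZT4, which is 4 h into the light. These are 6 of the 54 libraries of the series, 3 per time, named A, B and C. All groups shared genotype (wild-type Col-0) and early history. The seed had 48 h of cold dark treatment, and light and dark lasted 12 h each for the first 10 days. From day 11 the light period was 16 h for long day and 8 h for short day, while equinox day stayed at 12 h. Entire seedlings, shoots and roots together, were harvested on day 13. Long day (16 h light) and equinox day (12 h light) have the same times with 3 libraries each. All 54 libraries enter the fit, which takes the spread of a feature from its 18 groups together; the other photoperiods also serve the check of the labels, a joint test and the values set beside those of short day. The labels do not tell whether the 3 replicates of a group are separate cultures, and each p-value is therefore read against the spread of these libraries, which may be technical.

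Plant microRNAs are cut from hairpin transcripts by DCL1 with HYL1 and loaded mostly into AGO1, where they guide cleavage or reduced translation of target mRNAs. In seedlings they act on developmental timing, auxin response, organ patterning and nutrient use. The copper microRNAs miR397, miR398, miR408 and miR857 are switched on through the factor SPL7 when copper is scarce, and reduce copper proteins such as the superoxide dismutases CSD1 and CSD2 (miR398), laccases (miR397) and plantacyanin (miR408). Many other plant small RNAs, among them small interfering RNAs and fragments of longer RNAs, carry no microRNA name. In this table the rest of the features carry a numbered trex name, which no label or file explains.

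The 8 microRNAs with the smallest p in the comparison are printed first, because the microRNA results below rest on them. Mature sequences are RefSeq's for TAIR10.1, matched by mature name, 5′ to 3′, with the seed (bases 2 to 8) in capitals.
miR160c-3p: cGUACAAGgagucaagcauga
miR779.2: uGAUUGGAaauuucguugacu
miR398b-3p and miR398c-3p: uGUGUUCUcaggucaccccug
miR165a-5p: gGAAUGUUgucuggaucgagg
miR397b: uCAUUGAGugcaucguugaug
miR398a-3p: uGUGUUCUcaggucaccccuu
miR408-5p: aCAGGGAAcaagcagagcaug
miR398b-5p and miR398c-5p: aGGGUUGAuaugagaacacac

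The 2 forms of miR398-3p share a seed, and the table counts miR398b-3p and miR398c-3p, whose mature sequences are identical, as 1 feature. In TAIR10.1 miR160c-3p lies at chr5:19009095-19009115 on the minus strand and miR779.2 at chr2:9560866-9560886 on the plus strand. The miR398b-3p sequence lies at chr5:4691107-4691127 (plus) within a span annotated on the opposite strand as an exon of the coding gene AT5G14550, and miR398c-3p at chr5:4694778-4694798 (plus) with no other annotated gene. The miR397b sequence lies at chr4:7878730-7878750 (minus), miR398a-3p at chr2:1041012-1041032 (plus) and miR165a-5p at chr1:79010-79030 (minus). The miR408-5p sequence at chr2:19319866-19319886 (plus) overlaps an exon of AT2G47020 on the opposite strand. Without a stated strand rule for the counts, its reads and those of that gene cannot be told apart. The same holds for miR408-3p with AT2G47020, and for miR398b-3p and miR398b-5p with AT5G14550. A mature sequence was found for 149 of 149 tested microRNA features, 84 of which (56.4%) start with U, against 14 of the 20 with the smallest p. There were 112 of 149 tested features with 21 bases, and 18 of those 20.

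Depth ran from 14.1 to 21.6 M counts per library, and a single entry named genome took 81.3% to 92.9% of them. The counts outside that entry, on which all results rest, numbered 1.33 to 3.49 M per library, with 183 to 220 microRNA features detected. Levels are given in CPM from edgeR, which scales counts to the library total outside the genome entry and the TMM factor. The deposited table holds no protein-coding gene names, so the whole-seedling label could not be checked against organ markers. On the first principal component of all 54 libraries, ZT24 C (-85.4) and ZT4 B (-74.5) stood apart from the other 4, which lay between -14.8 and 3.06. Of the libraries compared, ZT24 C and ZT4 B also had the fewest counts outside the genome entry (1536624 and 1333843). Their genome shares were the highest (92.9% and 90.5%) and their detected microRNA features the fewest (194 and 183). Whether depth sets their position was not tested.

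The position of the libraries relative to their labels was checked on features that separate the photoperiods at ZT8 to ZT20, times that the comparison does not use. With 12 libraries per photoperiod there, 185 features had long-day and equinox-day levels that did not overlap, 109 separated short day from long day, and 74 short day from equinox day. Together these were 259 trex features (2.92% of those tested) and no microRNA. Each library was placed by the median position over the 185 features, with -1 for the equinox-day mean and 1 for the long-day mean. The 12 long-day libraries of ZT8 to ZT20 lay between 0.77 and 1.23, the equinox-day ones between -1.08 and -0.813, and the short-day ones between -0.58 and -0.168. The libraries labelled short day ZT24 lay at 0.986 (A), 0.698 (B) and 0.655 (C), and short day ZT4 A at 0.548, all toward long day. Short day ZT4 B and C lay at -0.577 and -0.328, within the short-day range on these features. On the 109 features, with -1 for long day and 1 for short day, the ZT24 libraries lay at -1.07, -0.692 and -0.616, ZT4 A at -0.492, and ZT4 B and C at 0.974 and 0.852. On the 74 features, with -1 for equinox day and 1 for short day, the short-day libraries of ZT8 to ZT20 lay between 0.694 and 1.44 and the long-day ones between -0.439 and 0.572. There ZT24 A, B and C lay at 0.543, 0.143 and 0.145 and ZT4 A at -0.054, ZT4 C at 1.14 within the short-day range, and ZT4 B at 0.59, below it. So 4 of the 6 libraries went against their label on the 185 and the 109 features, and the split runs within the ZT4 group and between it and ZT24. Among the long-day libraries, ZT24 A and B lay at -0.995 and -0.904, on the equinox-day side, and ZT24 C at 1.16. Of the equinox-day libraries, ZT4 A and ZT24 A and B lay within the equinox-day range, while ZT4 B (-0.757), ZT4 C (-0.581) and ZT24 C (-0.694) lay above it, still on the equinox-day side. What sets these features was not tested. Values without short-day ZT4 B and C, or without long-day ZT24 A and B, are given below beside the counts of calls, the list medians and the long-day estimates that short day is set against; such a fit rests on 1 library for the group it thins, assumed to vary like the others.

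**Figure D1:**
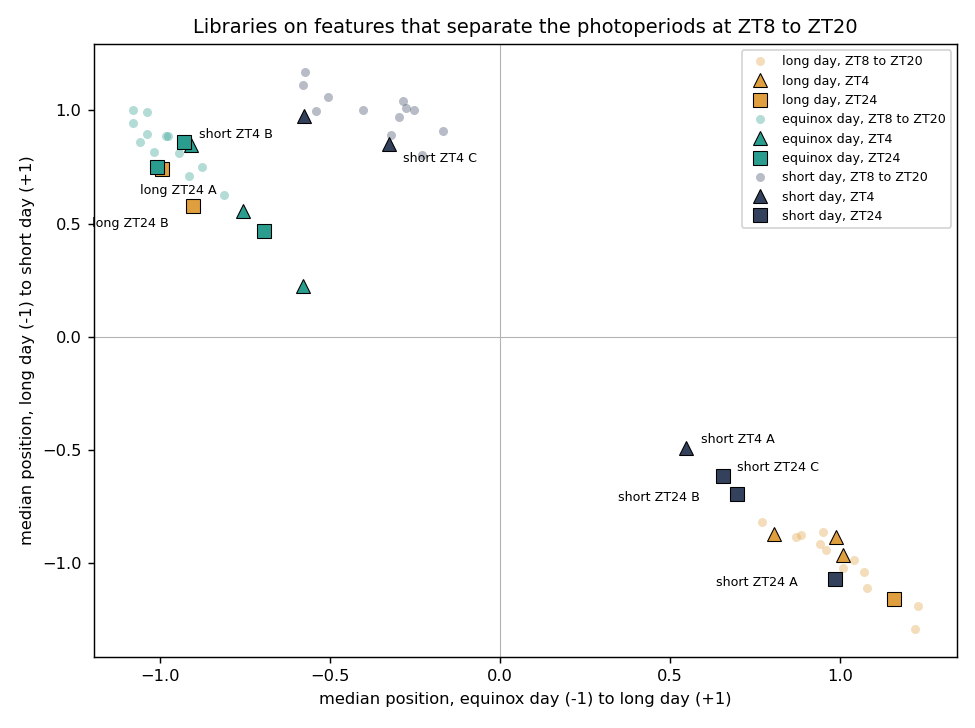
Each point is a library, placed by its median position on features that separate equinox day (-1) from long day (+1) on the x axis and long day (-1) from short day (+1) on the y axis, both without units; pale points are the ZT8 to ZT20 libraries that set the scale. The 3 libraries labelled short day ZT24 and ZT4 A sit on the long-day side, ZT4 B and C with the other short-day libraries, and long-day ZT24 A and B with equinox day.

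No microRNA passed the test between the end of night and the morning in short day. Of the 149 microRNA features tested, 107 had a lower and 42 a higher estimate at ZT4, with a median log2 fold change of -0.33, beside 0.03 over all 8869 features tested. That median was -0.11 without ZT24 A (91 lower), -0.12 without ZT4 B (85 lower), -0.56 without ZT24 C (125 lower) and -0.57 without ZT4 C (129 lower), so 1 library moves it severalfold. Without ZT4 B and C together it was -0.28 (112 lower), where all features had a median of -0.21. None of the 149 reached an adjusted p under 0.05, where 1.36% of all features were called higher and 0.0564% lower; the smallest adjusted p was 0.0727. At an unadjusted p under 0.05 there were 15 microRNAs, 2 higher and 13 lower (10.1% of them, beside 8.56% of all features). DESeq2 called 1 higher and 1 lower, and limma-voom 0 higher and 1 lower. The groups did not overlap for 12 microRNAs, all lower at ZT4, where 4.35% of all features did not overlap in that direction and 5.47% in the other. In bulk seedlings, fewer cells with a small RNA and less of it per cell cannot be told apart, nor can time of day and hours of light within short day alone.

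The smallest p belonged to miR160c-3p, the strand opposite to the miR160 guide that targets the auxin response factors ARF10, ARF16 and ARF17. Its level was 194, 179 and 108 CPM in ZT24 A, B and C and 63.8, 24.5 and 89.1 CPM in ZT4 A, B and C. The groups did not overlap, with ZT4 B lowest. The log2 fold change was -1.43 ± 0.42 (SE), and the adjusted p was 0.0727 (edgeR's quasi-likelihood test, Benjamini-Hochberg over all features). With ZT4 A alone against the 3 ZT24 libraries it was -1.33 on the log2 scale. The estimate was of like size in equinox day (-1.23 ± 0.42) and near 0 in long day (0.07 ± 0.41); the short-day estimate minus the long-day one was -1.50 ± 0.58 (adjusted p = 0.464 in edgeR). Without long-day ZT24 A and B the long-day estimate was -0.25 ± 0.58 and the difference -1.19 ± 0.74. Over the short-day course its mean was highest at ZT24 with 160 ± 45.8 CPM (SD, n = 3) and lowest at ZT8 with 47.3 ± 6.71 CPM. It passed the threshold in edgeR with DESeq2 size factors, without TMM factors, with the genome share as a covariate, in DESeq2, in limma-voom and when microRNAs were fitted alone.

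The next was miR779.2, a young microRNA of Arabidopsis, with levels of 16.1, 8.40 and 10.1 CPM at ZT24 and 27.6, 15.3 and 44.0 CPM at ZT4. ZT4 B lay just below ZT24 A, so the groups overlapped. The log2 fold change was 1.34 ± 0.40 with an adjusted p of 0.0833 in edgeR, and it passed in DESeq2, without ZT4 B and when microRNAs were fitted alone. In long day and equinox day, which share no library with short day, the estimates were 1.09 ± 0.41 (adjusted p = 0.25) and 1.26 ± 0.40 (adjusted p = 0.116); the long-day one was 1.68 ± 0.64 without ZT24 A and B. The course over the day showed high means during light in each photoperiod. In short day the mean was 29.0 ± 14.4 CPM at ZT4 and 20.9 ± 6.53 CPM at ZT8 and lay between 6.52 and 11.6 CPM at the dark times ZT12 to ZT24. In equinox day it was 33.0 ± 9.0 CPM at ZT12, the last light time, and 11.0 ± 2.60 CPM at ZT16. In long day it was 41.4 ± 0.73 CPM at ZT16 and 14.4 ± 3.34 CPM at ZT20.

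The copper list was lower at ZT4 in all 6 of its tested members by estimate, and 0 of 6 passed the test (0.0564% of all features were called lower). Its median log2 fold change was -1.23, the lowest of the lists; it was -0.78 in equinox day and 0.05 in long day, but -0.65 in long day without ZT24 A and B, where 0 of the 6 had a higher estimate. In short day it stayed below 0 under each setting tried, from -1.78 to -0.87, and was -1.44 without ZT4 B and C. For the feature miR398b-3p/miR398c-3p, which restrains CSD1 and CSD2, the levels were 6263, 3777 and 1995 CPM in ZT24 A, B and C and 1239, 915 and 2410 CPM in ZT4 A, B and C. Only ZT4 C overlapped the night libraries, lying above ZT24 C. The log2 fold change was -1.40 ± 0.49 (adjusted p = 0.202 in edgeR). The near-identical miR398a-3p, which shares most of its bases and can share reads with it, had 93.6, 66.9 and 36.3 CPM at ZT24 and 32.3, 16.5 and 40.9 CPM at ZT4. The other arm, miR398b-5p/miR398c-5p, had 30.9, 21.7 and 17.4 CPM at ZT24 and 8.40, 6.12 and 18.4 CPM at ZT4, with the same order of libraries.

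The laccase regulator miR397b was rare, with 6.65, 5.25 and 5.51 CPM at ZT24 and 1.34, 0.61 and 0.38 CPM at ZT4. Its groups did not overlap, and its log2 fold change of -2.76 ± 1.03 was the lowest of all tested microRNAs (adjusted p = 0.262 in edgeR). The estimate in equinox day was -2.61 ± 1.32 and in long day 0.53 ± 1.03 (-0.71 ± 1.26 without ZT24 A and B). The guide strand miR408-3p, which targets plantacyanin and laccase transcripts, had 1114, 822 and 448 CPM at ZT24 and 322, 213 and 775 CPM at ZT4, so ZT4 C lay inside the night range. Its partner miR408-5p had 226, 222 and 112 CPM at ZT24 and 69.9, 25.1 and 125 CPM at ZT4. In all 6 copper features ZT24 A was the highest of the night libraries, and in 5 of them, all but miR397b, ZT4 C was the highest of the morning ones.

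**Figure D2:**
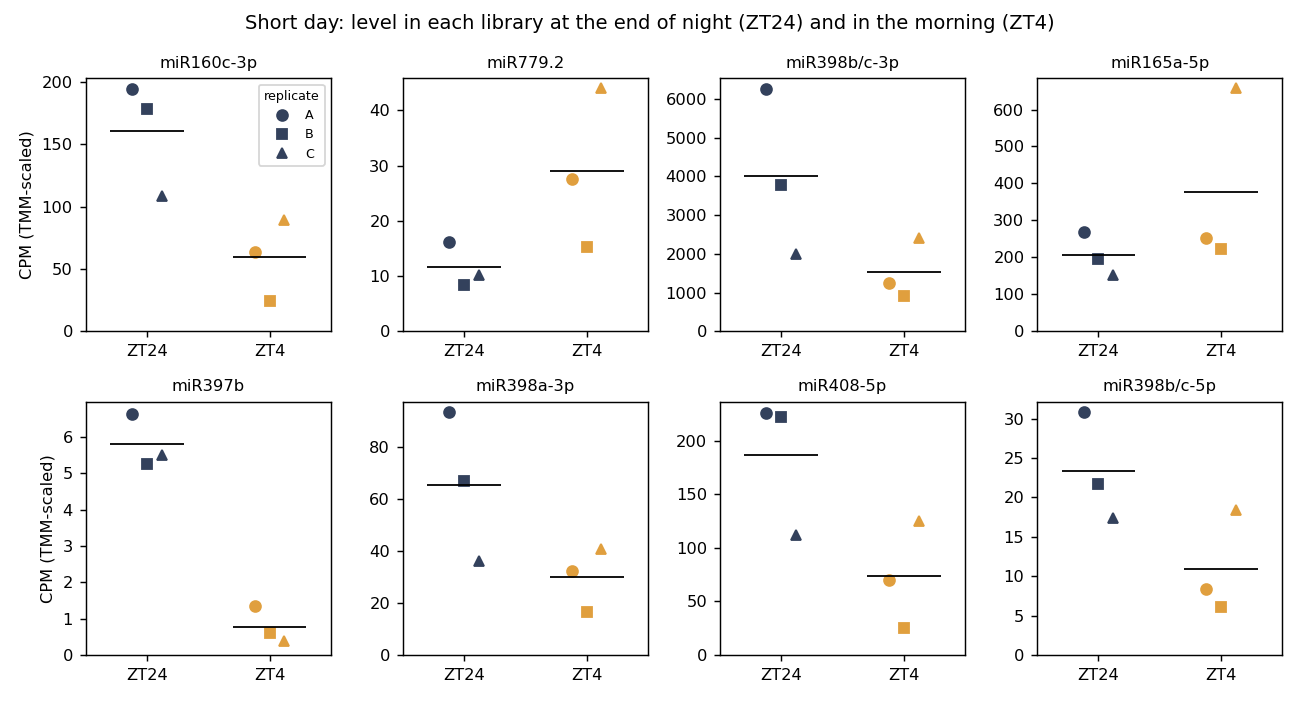
Level in CPM (y axis, linear from 0) of the 8 microRNAs with the smallest p in each library of short day ZT24 and ZT4; symbols mark replicates A, B and C and the line is the mean of 3. The groups are separate for miR160c-3p (108 to 194 against 24.5 to 89.1 CPM) and miR397b, and overlap for the other 6.

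By mean level in short day, each of the 6 copper features was lowest at a light time, ZT4 or ZT8, and highest at ZT24. The ZT4 and ZT24 means come from the libraries already compared above. The mean of miR398b-3p/miR398c-3p was 1521 ± 787 CPM at ZT4, 1839 ± 880 at ZT8, 1775 ± 947 at ZT12, 2381 ± 1471 at ZT16, 3591 ± 1624 at ZT20 and 4012 ± 2144 at ZT24 (SD, n = 3). Neighbouring times differ by less than their SD, and the libraries of ZT4 and ZT24 overlap. In long day its mean was 3461 ± 1074 CPM at ZT4 and 3464 ± 1660 at ZT24, with 5262 ± 1188 at ZT20. The mean of miR408-3p was 795 ± 334 CPM at ZT24 and 320 ± 156 at ZT8 in short day. In long day miR398b-3p/miR398c-3p was thus at nearly the same mean at both times, with an estimate of 0.00 ± 0.48, but of -0.59 ± 0.66 without ZT24 A and B. The long-day estimate of miR408-3p was -0.72 ± 0.47, and -1.11 ± 0.62 without those libraries. No copper member passed the test of the difference between short day and long day (adjusted p = 0.657 for miR398b-3p/miR398c-3p in edgeR).

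**Figure D3:**
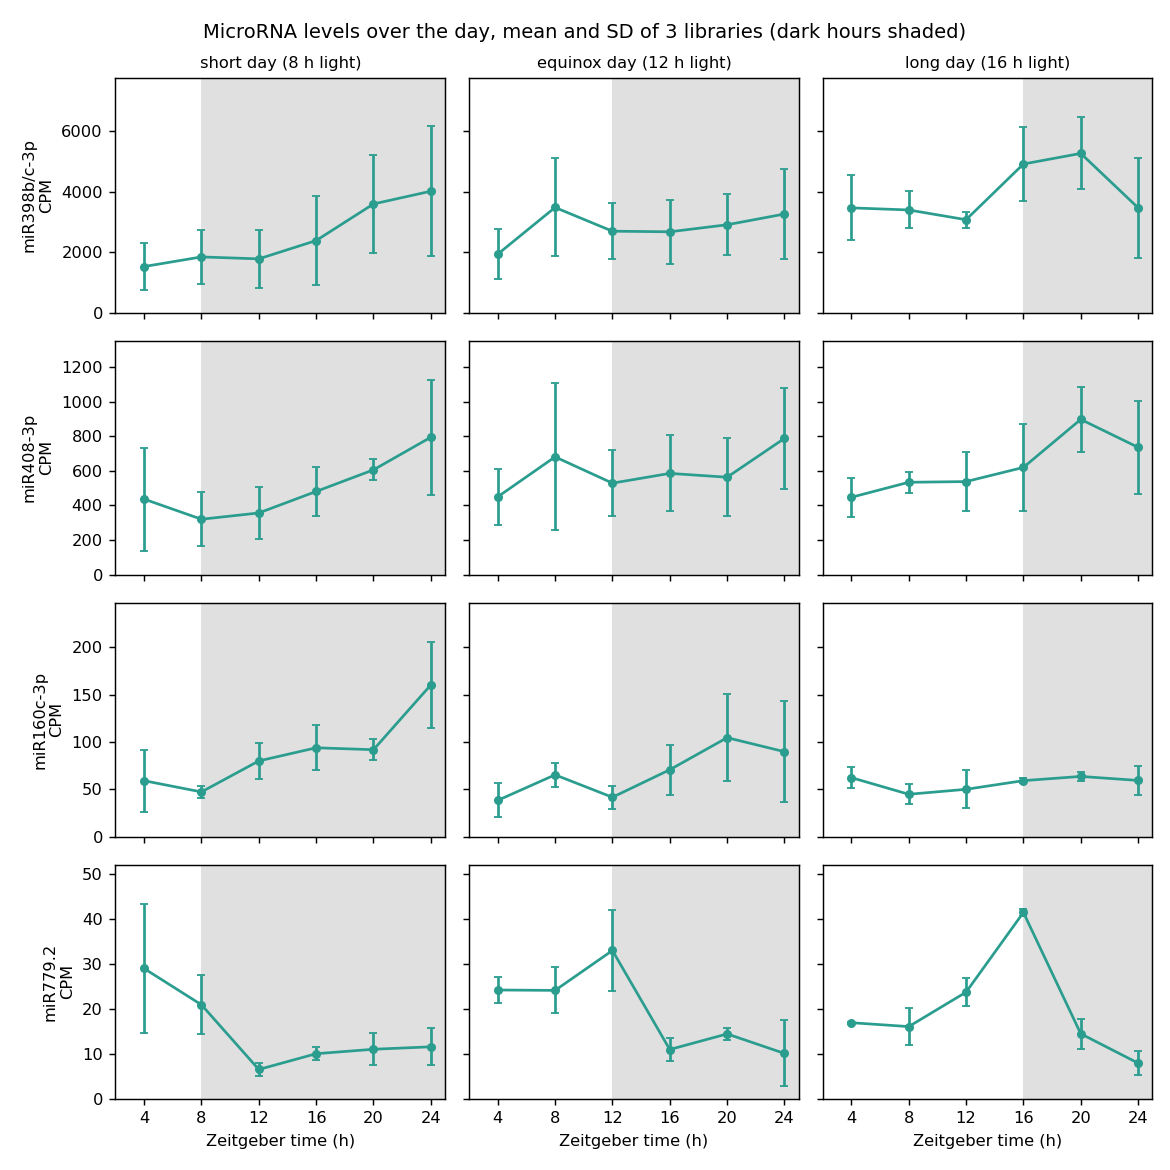
Mean level in CPM (y axis) over Zeitgeber time in h (x axis) of miR398b-3p/miR398c-3p, miR408-3p, miR160c-3p and miR779.2 in short day, equinox day and long day; bars are the SD of 3 libraries and dark hours are shaded. In short day the first 3 have their highest mean at ZT24, and miR779.2 has its highest at ZT4.

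Among development microRNAs, estimates were mostly lower at ZT4 and none passed. The medians of the juvenile, adult-phase, miR159 and miR319, auxin and patterning lists lay between -0.39 and -0.21, but between 0.02 and 0.15 when microRNAs were fitted and scaled alone. They also moved with single libraries. Without ZT4 B the juvenile median was 0.05 (5 of 12 lower), the adult-phase one 0.12, that of miR159 and miR319 -0.05 and the patterning one -0.14. The auxin and patterning medians were -0.07 (9 of 16 lower) and -0.12 without ZT24 A, and the adult-phase one was 0.05 without ZT24 B and -1.26 without ZT4 A. Without ZT24 C the medians of all 5 lay lower, between -0.68 and -0.44. Without ZT4 B and C together the adult-phase median was 0.47, the patterning one -0.06, the juvenile one -0.14, the auxin one -0.21 and that of miR159 and miR319 -0.40 (6 of 6 lower). In the auxin list (miR160, miR167, miR390, miR391 and miR393) 13 of 16 had a lower estimate, with a median of -0.28. It was -0.41 in equinox day and 0.12 in long day, and 0.00 in long day without ZT24 A and B. Its feature miR167a-5p/miR167b, which targets ARF6 and ARF8, had 1038, 1335 and 777 CPM at ZT24 and 897, 315 and 408 CPM at ZT4. ZT4 A lay within the night range and ZT4 B and C below it, and the log2 fold change was -0.96 ± 0.49. The rarer miR167c-5p did not overlap between the groups, with 92.1, 81.2 and 60.1 CPM against 50.4, 28.2 and 44.0 CPM. In the patterning list (miR164, miR165, miR166, miR394 and miR396) 9 of 14 were lower by estimate. Its miR165a-5p, the strand opposite to the miR165 guide of HD-ZIP III transcripts, had a higher estimate, with levels of 268, 196 and 152 CPM at ZT24 and 253, 222 and 659 CPM at ZT4. That estimate of 0.88 ± 0.33 rests on ZT4 C, since ZT4 A and B lay inside the night range. The abundant guide feature of miR166 had 9353, 7346 and 3497 CPM at ZT24 and 3694, 4125 and 7080 CPM at ZT4, and did not differ beyond that spread (adjusted p = 0.803 in edgeR).

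The GAMYB regulators miR159a and miR159b-3p had like profiles over the libraries. The levels of miR159a were 5312, 5613 and 2535 CPM at ZT24 and 2801, 1651 and 2949 CPM at ZT4, and those of miR159b-3p were 4962, 4704 and 1916 CPM and 2247, 1311 and 2920 CPM. In both, ZT24 C lay with the morning libraries. The estimates were -0.86 ± 0.39 and -0.84 ± 0.41, with adjusted p of 0.49 and 0.557 in edgeR; the 2 sequences are close enough to share reads. The miR159 and miR319 list was split, 3 lower and 3 higher by estimate. In the juvenile list 10 of 12 miR156 and miR157 features were lower by estimate (median -0.21). The main miR156 feature, which restrains SPL factors, had 10311, 9068 and 6223 CPM at ZT24 and 7840, 4560 and 10011 CPM at ZT4. The adult-phase miR172a/miR172b-3p, which acts on AP2-like factors, was rare, with 7.60, 19.6 and 11.5 CPM and 17.8, 6.73 and 4.21 CPM.

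Triggers of secondary small interfering RNA gave a median of -0.57, with 5 of 7 lower by estimate. The median was -0.24 without ZT4 B, -0.28 without ZT24 B and -0.21 without ZT4 B and C. With microRNAs fitted and scaled alone, these triggers had a median of -0.18. Within them miR173-5p, which starts trans-acting siRNA from TAS1 and TAS2, had 285, 350 and 243 CPM at ZT24 and 253, 88.1 and 95.6 CPM at ZT4. As with miR167a-5p/miR167b, ZT4 A lay with the night libraries and ZT4 B and C below them; without ZT4 B and C the lower estimates of both are the smallest found, -0.21 for miR173-5p and -0.23 for miR167a-5p/miR167b. The most abundant microRNA, miR161.1, which targets pentatricopeptide repeat transcripts, had 47262, 29912 and 14301 CPM at ZT24 and 15147, 24904 and 51565 CPM at ZT4. Its estimate was 0.00 ± 0.34. The feedback list (miR162, miR168 and miR403, which act on DCL1, AGO1 and AGO2) gave 4 higher and 3 lower by estimate with a median of 0.08, whose sign did not hold. It was -0.39 without ZT4 C (6 of 7 lower), -0.21 without ZT24 C, -0.50 without ZT4 B and C, -0.20 in limma-voom, -0.18 with the genome share and -0.11 without TMM factors, and 0.36 without ZT4 B. There the feature miR162a-3p/miR162b-3p had 11117, 7131 and 4650 CPM at ZT24 and 4315, 4704 and 15181 CPM at ZT4, so the spread within a group was wider than the difference.

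The remaining lists held no called member either. The NF-YA and HAM list had 6 of 7 lower by estimate (median -0.43). The median was -0.69 without ZT24 C, -0.68 without ZT4 A, and -0.05 with 4 of 7 lower without ZT4 B and C. With microRNAs fitted and scaled alone, the list had 5 of 7 lower and a median of -0.02. Its miR171b-5p did not overlap between the groups, with 28.0, 26.3 and 25.3 CPM at ZT24 and 17.1, 4.90 and 17.6 CPM at ZT4, and a log2 fold change of -0.98 ± 0.47. Its miR169f-3p was higher by estimate (0.69 ± 0.39). Both sulfate features of miR395, which targets ATP sulfurylases, were higher by estimate (0.43 and 0.47). Their median was -0.06 without ZT4 C and -0.08 without ZT4 B and C. Of the phosphate features tested, miR399b/miR399c-3p was lower by estimate (-0.43). The other, miR827 (-0.01), had no steady direction and was higher by estimate in DESeq2 and limma-voom. The phosphate median was -0.22, and -0.16 without ZT4 B and C. In the light-linked list (miR163, miR408 and miR858) 5 of 5 were lower by estimate. Of these, miR408-3p and miR408-5p are also in the copper list. The median was -0.54, and -0.61 without ZT4 B and C. It was -0.76 in equinox day and -0.40 in long day, or -1.01 there without ZT24 A and B. In short day 4 of 5 were lower without ZT4 B, ZT24 A or ZT24 B, as miR163 (-0.09) turned higher. With microRNAs fitted and scaled alone, 4 of 5 were lower with a median of -0.12. In the list of microRNAs reported to oscillate over the day (miR167, miR168, miR171 and miR398) 13 of 16 were lower by estimate. The list median was -0.51, beside -0.32 in equinox day and 0.21 in long day (0.14 without ZT24 A and B). In short day it was -0.78 without ZT24 C, -0.49 without ZT4 B and C, -0.36 without ZT4 B and -0.35 without ZT24 B. When microRNAs were fitted and scaled alone it was -0.04, with 10 of 16 lower and 2 called higher. Among the young microRNAs 26 of 40 were lower by estimate, and among the late-numbered ones 17 of 22. Their medians of -0.21 and -0.35 were 0.01 and -0.13 without ZT4 B and -0.02 and -0.07 without ZT24 A, -0.54 and -0.84 without ZT4 C, and -0.27 and -0.51 without ZT4 B and C; with microRNAs scaled alone the medians of both lists and of the phosphate list were above 0. Other microRNAs of the 20 with the smallest p were miR447a.2-3p (-0.75 ± 0.35), miR822-5p (-0.93 ± 0.46), miR5996 (-1.22 ± 0.62), miR842 (-1.11 ± 0.57) and miR164c-5p (-0.72 ± 0.40). The abundant features miR158a-3p, miR5026, miR157a-3p/miR157b-3p, miR396b-5p and miR403-3p had estimates from -0.35 to -0.04, and miR158a-3p, miR5026 and miR403-3p had a higher estimate without ZT4 B and without ZT24 A. By mean level over the times of short day, 18 of those 20 were highest at ZT24, 13 were lowest at ZT8 and 3 at ZT4. The 20 were picked by ZT4 against ZT24, mostly with lower ZT4, so a high ZT24 mean is favoured by that choice. The same count over all tested microRNAs is not given.

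**Figure D4:**
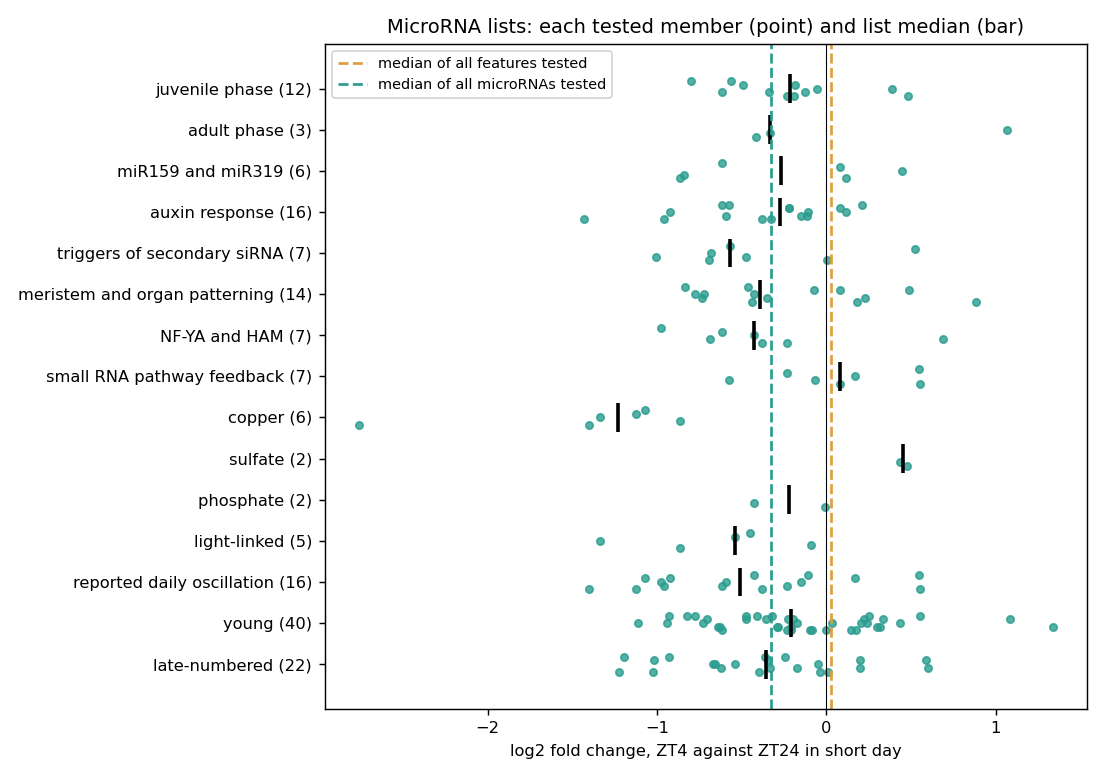
Each point is a tested microRNA feature, with its log2 fold change of ZT4 against ZT24 in short day on the x axis and its list on the y axis (number tested in brackets); black bars are list medians and dashed lines the medians of all features (0.03) and of all microRNAs (-0.33). The copper list lies farthest to the left with a median of -1.23.

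The share of microRNA counts among the counts outside the genome entry was 13.8%, 14.0% and 9.67% at ZT24 and 10.8%, 8.61% and 11.6% at ZT4. The means were 12.5% ± 2.45 and 10.3% ± 1.55 (SD, n = 3), and the difference of -2.16 percentage points gave p = 0.3 in a two-sided exact permutation test, where the smallest p that 3 against 3 can give is 0.1. The differences in equinox day and long day were -3.90 and -1.52 points. Over the 3 photoperiods together, with labels permuted within each, the mean difference of -2.53 points gave an exact p of 0.005 (smallest possible 0.00025). Without short-day ZT4 B and C and long-day ZT24 A and B it was -2.18 points with an exact permutation p of 0.0563 (smallest possible 0.00313). Taken as a share of all counts, the joint difference was -0.35 points with an exact permutation p of 0.1755, and that in short day was -0.10 points (exact permutation p = 1). The microRNA median of -0.33 on the log2 scale is relative to the same totals, and it became 0.08 when microRNAs were fitted and scaled alone.

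Outside the microRNAs, 121 trex features rose from ZT24 to ZT4 (1.36% of those tested) and 5 fell (0.0564%). The 121 had a median log2 fold change of 3.16 (1.78 to 10.2), and their median level rose from 1.10 CPM at ZT24 to 11.0 CPM at ZT4. The groups did not overlap for 109 of them, beside 5.47% of all features in that direction. The same libraries chose the 121, so this is favoured in advance. Of the 121, 5 were at 0 in each ZT24 library, and 39 had a mean of at least 10 CPM. Summed, they made up 0.0730%, 0.0561% and 0.0698% of the counts in ZT24 A, B and C and 0.371%, 0.484% and 0.563% in ZT4 A, B and C. ZT4 C, with a TMM factor of 0.748, was the highest morning library for 111 of the 121, against 38.1% of all features tested.

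The clearest of these was trex9131, with 13.3, 6.65 and 5.97 CPM at ZT24 and 89.4, 187 and 366 CPM at ZT4. Each morning library was above each night library. Its log2 fold change was 4.63 ± 0.55 (adjusted p = 3.78e-07, edgeR). The second, trex545851, had 4.27, 3.85 and 3.67 CPM at ZT24 and 46.0, 53.9 and 108 CPM at ZT4, and its log2 fold change was 4.12 ± 0.51 (adjusted p = 5.69e-07, edgeR). Both were also called higher in the other photoperiods: the log2 fold changes of trex9131 were 2.57 ± 0.50 in long day and 4.20 ± 0.54 in equinox day, and those of trex545851 were 2.83 ± 0.47 and 3.58 ± 0.50. Without long-day ZT24 A and B the long-day values were 2.80 ± 0.79 and 2.78 ± 0.76, and neither was called (adjusted p = 0.521 for both in edgeR).

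Of the 121, 7 (5.79%) were among the features that separate the photoperiods, beside 2.92% of all features. In 111 of them ZT4 A, the morning library on the same side as the 3 ZT24 libraries, was above each of these. The test that chose the 121 used these libraries, which favours such an order, and the share over all features is not given. In 20 of the 121 (16.5%, beside 9.18% of all features) ZT4 A was below 0.5 times the lower of ZT4 B and C. Without ZT4 B and C, 116 of the 121 kept a higher estimate and 13 were called, among 15 features called in all, with a single morning library assumed to vary like the other groups; the median of all features was -0.21 in that fit. Without ZT4 A, 116 of the 121 were called. The count of features called higher fell to 33 without ZT4 C, 36 without ZT24 B, 44 without ZT24 C and 48 without ZT4 B and ZT24 C together, and 23 were called in each of the 6 fits that left out 1 library. It was 47 with only short-day libraries in the fit and 62 with no filter on low counts. When only the 6 libraries were fitted it was 0 (360 features of either direction at an unadjusted p under 0.05 in edgeR). All 121 had a higher estimate in each of these fits except the one without ZT4 B and C. The fits share the libraries that chose the 121, so that sign is nearly fixed.

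By their median, the features that rose were higher at the light times than at the dark times of each photoperiod. The 121 were chosen for ZT4 above ZT24 in short day, so the ratio at ZT4 there is high by choice. The low ZT24 level also divides every other short-day ratio. Relative to ZT24, their median log2 ratio in short day was 2.65 at ZT4 and 2.58 at ZT8, then 0.56, 0.42 and 0.41 at ZT12, ZT16 and ZT20. In equinox day it was 1.89, 1.74 and 1.93 at ZT4, ZT8 and ZT12 and then 0.35 and 0.08. In long day it was 1.59, 1.51, 1.60 and 2.22 at ZT4 to ZT16 and then 0.17 at ZT20. The last time of high level therefore came at ZT8, ZT12 and ZT16, the last light time of each photoperiod. Single features departed from this: the highest mean was at a dark time for 1 (ZT12) and 4 (ZT16) of the 121 in short day, for 3 (ZT24) in equinox day, and for 1 (ZT20) and 5 (ZT24) in long day. In the contrasts from the last light time to the first dark time, chosen after the course was seen, 120 of 121 had a lower estimate in short day and 53 were called lower (43.8%, beside 1.07% of all features). In equinox day 115 were lower by estimate and 14 called (11.6%, beside 0.361%), and in long day 117 and 83 (68.6%, beside 6.17%). At least 1 of these contrasts called 90 of the 121 lower, and all 3 called 11.

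**Figure D5:**
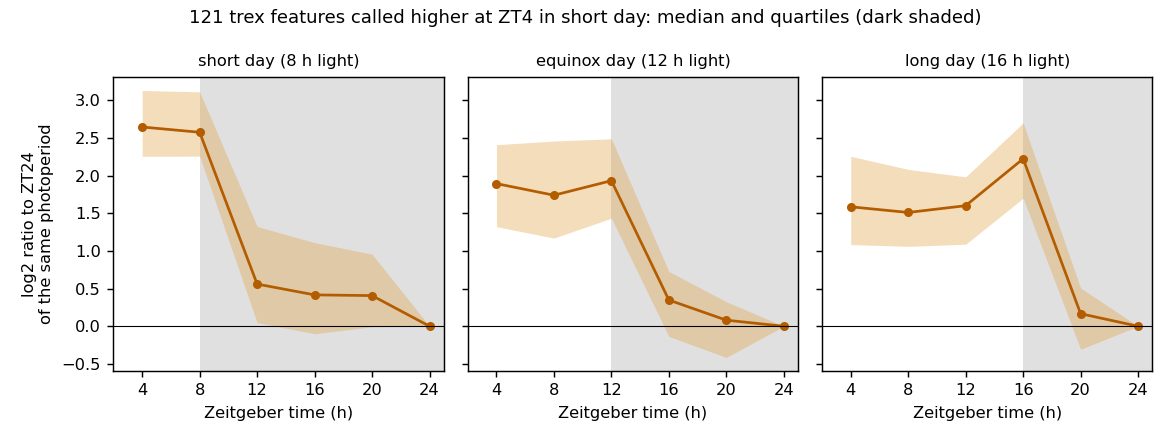
Median (line) and quartiles (band) over the 121 trex features called higher at ZT4 in short day of the log2 ratio to ZT24 of the same photoperiod (y axis) by Zeitgeber time in h (x axis); dark hours are shaded. The median is between 1.51 and 2.65 at the light times and between 0.08 and 0.56 at the dark times before ZT24. In short day, ZT4 and ZT24 are the times by which the features were chosen.

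In the morning comparison of the other photoperiods, the same features were mostly higher too. In equinox day 118 of the 121 had a higher estimate (median 2.20) and 45 were called, which is 37.2% of the 121 and 50.6% of the 89 features called higher there (1% of all tested; 17 or 0.192% were called lower). In long day 113 had a higher estimate (median 1.91) and 33 were called, 27.3% of the 121 and 73.3% of the 45 called higher there (0.507%; 28 or 0.316% were lower). Without long-day ZT24 A and B 117 had a higher estimate there (median 2.10), and no feature of the table was called in either direction. All 3 photoperiods called 21 of them higher.

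The 5 features that fell had a median log2 fold change of -2.25 (-5.55 to -2.16). Their groups did not overlap, as for 4.35% of all features in that direction, and the same libraries chose the 5. The count of features called lower moved with single libraries, to 39 without ZT4 A and 1 without ZT4 B, and DESeq2 called 20. The feature trex1203 had 67.4, 27.7 and 17.4 CPM at ZT24 and 10.1, 5.51 and 7.65 CPM at ZT4, a log2 fold change of -2.25 ± 0.56 (adjusted p = 0.0177, edgeR). The feature trex1150684 had 20.9, 24.2 and 12.9 CPM at ZT24 and 8.06, 0.61 and 3.06 CPM at ZT4, a log2 fold change of -2.21 ± 0.55 (adjusted p = 0.0194, edgeR). Both are among the features that separate the photoperiods, as are 4 of the 5. At the other short-day times trex1203 had means of 2.23 to 7.34 CPM, while its long-day means ran from 23.6 to 48.6 CPM, so its ZT24 mean of 37.5 ± 26.4 CPM lay with long day. The one that does not separate the photoperiods had the lowest estimate, -5.55, and the only call in equinox day (1 of 5; none in long day). Without ZT4 B and C none of the 5 was called.

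The morning difference itself differed between short day and long day for 24 trex features, 21 with a higher short-day difference (0.237% of those tested) and 3 with a lower one (0.0338%), and for no microRNA (edgeR interaction, smallest adjusted p of a microRNA 0.447). The median level of the 21 was 1.90, 1.05 and 0.459 CPM in short day ZT24 A, B and C and 1.01, 5.51 and 13.4 CPM in ZT4 A, B and C. In long day it was 20.6, 20.6 and 1.75 CPM in ZT24 A, B and C and 1.31 to 1.39 CPM in the 3 ZT4 libraries, and in equinox day it was 16.5 to 41 CPM in all 6 libraries. In the 3 with a lower difference, short-day ZT4 B and C were the lowest short-day libraries of these times and long-day ZT24 A and B the lowest long-day ones. High and low thus divided the libraries within short day ZT4 and within long day ZT24, and 23 of the 24 are among the features that separate the photoperiods. None was called without short day ZT4 B and C, without short day ZT4 C alone, or without long day ZT24 A and B. Against equinox day 0% of features were called higher and 0% lower (558 at an unadjusted p under 0.05 in edgeR, 1 of them a microRNA; DESeq2 called 3 and limma-voom 0).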

How the data were processed

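The deposited table holds whole-number read counts per feature and library, made by the authors from small RNA reads; cutadapt 3.4, Bowtie2 2.5.1 and SAMtools were used, per the submitters' processing notes. Build, counting rule and strand handling are not given in the sources. All 54 count columns matched a sample by name. The genome entry was left out of totals and tests. The fit in edgeR 4.0.16 under R 4.3.3 gave each of 18 groups 1 coefficient, with TMM factors and filterByExpr (minimum count 10, minimum total 15), which kept 8869 of 223651 features, 149 of 286 microRNAs and 8720 trex features; 137 microRNAs were too rare. Each contrast was tested by the quasi-likelihood test with Benjamini-Hochberg adjustment over all features (threshold 0.05, 36 residual degrees of freedom). The standard error is the one the test statistic implies. Alternatives used DESeq2 1.42.0 and limma 3.58.1. The script was tested on simulated counts. Members, lists and tests were chosen with earlier results of these data known. Named were the 20 microRNAs of smallest p, up to 2 abundant members per list, the 10 most abundant, and 2 trex features per direction with a mean of at least 10 CPM.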

Additional observations from a re-analysis of the deposited data

Results flagged for a closer look

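The morning difference differed between short day and long day for 24 features by the edgeR interaction, all of them trex features. By median over the 21 with a higher short-day difference, the libraries labelled short day ZT4 B and C and long day ZT24 A and B were the high ones of their photoperiod, and for the 3 with a lower one they were the low ones; the count was 0 without either pair. What sets the division of libraries was not tested.

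For miR171b-5p, each short-day morning library was below each night library, and each long-day morning library above each night library (8.97 ± 2.12 CPM at ZT24 and 12.8 ± 2.10 CPM at ZT4, SD, n = 3). The difference of the log2 fold changes was -1.495 ± 0.68, with an adjusted p of 0.593 in edgeR, and -1.21 ± 0.86 without long-day ZT24 A and B. Groups of 3 libraries are too small for the check for single samples far from the rest.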

How the results depend on the processing

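Whether the letters A, B and C pair libraries across times is not stated in the labels. Deviations of ZT4 and ZT24 libraries of the same letter correlated at -0.0992, -0.397 and -0.586. Those of ZT4 B went with ZT24 C (0.669) and those of ZT4 C with ZT24 A (0.657). Deviations within a group of 3 are bound to each other, so these values cannot settle the pairing. With the letters as a replicate block, 115 features were called higher and 5 lower, 20 and 3 differed from long day, and no microRNA was called. Leaving out 1 library moved the features called higher between 33 and 161, those lower between 1 and 39, those above long day between 0 and 60, those below it between 0 and 61, those above equinox day between 0 and 5, and the microRNAs called higher between 0 and 1. Features called higher and lower numbered 62 and 6 with no filter, 47 and 2 with short-day libraries alone, 48 and 1 without ZT4 B and ZT24 C, 15 and 0 without ZT4 B and C, and 0 and 0 with the 6 libraries alone. Features called lower were 8 without TMM factors, 2 on totals with the genome entry, 20 in DESeq2 and 9 with the genome share as a covariate; the cause was not tested. Against long day, DESeq2 called 35 above and 8 below, limma-voom 14 and 43, no filter 15 and 1, the fit without ZT4 B and ZT24 C 9 and 1, and the fits with only the 18 libraries compared, without short day ZT4 B and C, without long day ZT24 A and B, or without both pairs 0 and 0. Against equinox day DESeq2 called 3 and no filter 1. Of microRNAs, 9 were called higher and 1 lower when fitted alone, where scaling to microRNAs raised their median to 0.08; 1 was called higher and 1 lower in DESeq2, and 1 lower with DESeq2 size factors, without TMM factors, in limma-voom and with the genome share. Outside that scaling of microRNAs alone, which shifts them together, 14 of 41 named microRNAs had an opposite sign under some setting and 2 passed under some. The fits without LD or ED libraries and without pairs of libraries were added after the data were seen. A median SE of 0.45 over microRNAs limits what 3 libraries a group can show. The median of all features was 0.03, and 0.15 on totals with the genome entry.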
